A study of Mus musculus with 12 samples.

Results

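The broad shared regions are long stretches of accessible liver chromatin that Control, Sham and VSG mice have in common. They were chosen by merging the 3 deposited lists of FAIRE peaks, 1 list for each group, wherever peaks overlapped. A merged region was kept when it was 1000 bp or longer and overlapped a peak of every list by at least 1 bp. Of 59249 merged regions, 4281 (7.23%) met this rule, and they made up 13.1% of the 32716 regions present in all 3 lists. Because the regions were selected on peak positions and lengths, those values are given as a description and were not tested. Of the 4394 merged regions of 1000 bp or longer, 97.4% were present in all 3 lists, against 51.8% of the 54855 shorter regions.

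FAIRE-seq and RNA-seq were performed on the same livers, from 2 mice in each of the 3 groups, which gives 12 samples. All mice were wild-type male C57BL/6J. Control mice received standard chow for 28 weeks without surgery. Sham and VSG mice received a diet with 60 kcal% saturated fat from 8 weeks of age, for 14 weeks before and 14 weeks after their operation. VSG (vertical sleeve gastrectomy) leaves a tube-shaped stomach, whereas in the Sham operation the stomach was only exposed and pressed. Diet and operation both differ between Sham and Control mice, so their effects cannot be told apart there. Each peak list combines both mice of its group, so no value of a region has a replicate error. How many reads stand behind a list is unknown. As bulk liver was used, more accessible chromatin or more RNA per cell cannot be told apart from more cells of a type. The tissue label was checked on the RNA: the summed level of 30 measured hepatocyte secreted proteins was 83526 to 98826 FPKM per mouse, and that of 39 developmental regulators not used by adult liver was 1.04 to 2.18 FPKM.

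FAIRE-seq recovers the DNA that formaldehyde does not tie to nucleosomes. Active promoters lose nucleosomes upstream of the start of transcription, and enhancers lose them where transcription factors bind. Many mammalian promoters, in particular those of housekeeping genes, lie in CpG islands, which are rich in G and C and keep the CpG dinucleotides that methylation has removed from most of the genome. In liver, promoters of genes expressed mainly in hepatocytes often lack such an island. A broad open region may hold a promoter, the first part of a gene, neighbouring promoters or a run of enhancers.

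The sequences below show how different the broad shared regions are from each other. Each is a run of 200 bases of the plus strand of NCBIM37 (mm9) at the highest point of the strongest peak of a region, with every CpG dinucleotide in capitals. The first 4 regions met the definition of a CpG island sequence used here, a GC content of at least 55% and a ratio of observed to expected CpG of at least 0.65 in the 500 bp around that point. The region of Cebpa, a liver transcription factor, spans chr7:35902775-35904736. The region of Ppara, the nuclear receptor of fatty acid oxidation, spans chr15:85564557-85567245. The region of Brp44l, which encodes the mitochondrial pyruvate carrier subunit Mpc1, spans chr17:8475620-8477589. The region of Epha2, an ephrin receptor, spans chr4:140856918-140859178.
Cebpa: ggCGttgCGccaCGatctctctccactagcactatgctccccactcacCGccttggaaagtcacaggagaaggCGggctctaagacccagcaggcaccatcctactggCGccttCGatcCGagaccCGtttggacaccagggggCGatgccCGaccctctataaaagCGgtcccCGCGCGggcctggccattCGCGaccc
Ppara: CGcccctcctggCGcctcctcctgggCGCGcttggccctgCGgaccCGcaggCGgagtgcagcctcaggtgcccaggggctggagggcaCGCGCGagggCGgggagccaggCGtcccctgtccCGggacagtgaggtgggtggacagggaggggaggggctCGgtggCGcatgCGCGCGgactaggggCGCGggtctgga
Brp44l: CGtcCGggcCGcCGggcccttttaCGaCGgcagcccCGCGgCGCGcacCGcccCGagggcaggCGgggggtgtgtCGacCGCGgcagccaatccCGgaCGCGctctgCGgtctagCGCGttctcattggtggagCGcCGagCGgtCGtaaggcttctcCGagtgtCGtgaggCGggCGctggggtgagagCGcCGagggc
Epha2: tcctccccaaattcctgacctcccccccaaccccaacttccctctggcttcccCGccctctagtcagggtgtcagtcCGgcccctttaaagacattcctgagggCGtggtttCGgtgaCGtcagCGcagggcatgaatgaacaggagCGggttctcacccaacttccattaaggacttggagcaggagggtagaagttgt

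The next 4 regions did not meet that definition. The region of Rxra, the common partner of nuclear receptors, spans chr2:27531331-27532547. The region of Slc25a22, a mitochondrial glutamate carrier, is the longest and spans chr7:148617651-148624140. The region of Gpt, alanine aminotransferase, spans chr15:76524582-76529034, and that of Slc25a47, a mitochondrial carrier of liver, spans chr12:110091720-110096406.
Rxra: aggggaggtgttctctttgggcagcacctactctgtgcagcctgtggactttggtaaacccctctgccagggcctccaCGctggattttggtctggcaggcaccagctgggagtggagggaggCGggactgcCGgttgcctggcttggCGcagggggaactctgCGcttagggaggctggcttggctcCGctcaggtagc
Slc25a22: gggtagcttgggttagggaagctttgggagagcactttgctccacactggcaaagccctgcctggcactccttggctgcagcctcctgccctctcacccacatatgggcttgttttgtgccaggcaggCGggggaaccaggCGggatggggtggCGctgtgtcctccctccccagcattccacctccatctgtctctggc
Gpt: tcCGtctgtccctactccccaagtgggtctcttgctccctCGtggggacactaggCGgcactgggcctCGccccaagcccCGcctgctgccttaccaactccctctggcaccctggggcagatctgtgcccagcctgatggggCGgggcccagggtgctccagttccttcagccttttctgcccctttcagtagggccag
Slc25a47: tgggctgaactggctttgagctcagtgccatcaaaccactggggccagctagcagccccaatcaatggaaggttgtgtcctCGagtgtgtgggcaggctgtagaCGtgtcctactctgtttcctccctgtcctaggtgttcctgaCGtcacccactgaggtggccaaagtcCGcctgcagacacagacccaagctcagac
The 200 bases of Brp44l hold 32 CpG dinucleotides and those of Ppara 20, while those of Slc25a22 hold 3 and those of Slc25a47 hold 4. The 4 sequences of the second set are nevertheless rich in G and C, with 57.5% to 66.0%. The 500 bp windows of the second set had a GC content of 56.2% to 60.0% and so missed the definition by their CpG ratio alone. That the sets differ in CpG follows from how they were sorted. The Epha2 stretch, with 7 CpG dinucleotides, lies between the rest of its set and the second set.

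Broad shared regions had a median length of 1255 bp, with the middle 50% between 1103 and 1533 bp and a maximum of 6490 bp. They held 27.4% of all bases in Control peaks, 22.1% in Sham peaks and 24.96% in VSG peaks, although they contained only 12.3%, 9.37% and 12.1% of the peaks. In 2673 regions (62.4%) each list had a single peak. In 1157 regions (27.0%) each list had a peak of 1000 bp or longer, and in 443 regions (10.3%) no single peak was that long, so that the length came from joining peaks. The members just inside the threshold, at 1000 bp, held the starts of Gorasp1 and Ttc21a, the start of Vps72, and a region 18938 bp from the nearest start, that of Cno. Just outside it, at 999 bp, lay the promoters of Sf3b1, Gtf2a1 and Chchd1.

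The 3 groups differed in how much of a broad shared region their peaks covered. The median cover was 93.2% for Control peaks, 94.0% for Sham peaks and 81.3% for VSG peaks. VSG peaks covered the least of the 3 in 52.3% of regions. A VSG peak of 1000 bp or longer was present in 1852 regions, against 2656 for Control and 2654 for Sham. In shared regions under 1000 bp the medians were 86.5%, 98.3% and 84.2%, and there VSG peaks covered the least in 43.1% and Control peaks in 41.4%. The VSG list also held fewer peaks of 1000 bp or longer than the other lists, 1891 against 2731 in Control and 2717 in Sham. With 1 list for each group, the difference has no replicate check.

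The strength of the peaks was ranked within each list, since the F-seq signal is not on a common scale. The strongest peak of a broad shared region stood at a median percentile of 86.5 among Control peaks, 87.4 among Sham peaks and 87.2 among VSG peaks, against 56.2, 64.5 and 58.2 for narrow shared regions. In each list 39.9% to 43.3% of broad shared regions belonged to the top 10% by signal, and 7.19% to 8.64% fell below the median of the list. Length and signal therefore went together in all 3 lists, but not in every region: the strongest peak of the Slc25a47 region, 4687 bp long, stood at percentile 68.6 in Control, 74.7 in Sham and 45.2 in VSG.

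**Figure D1:**
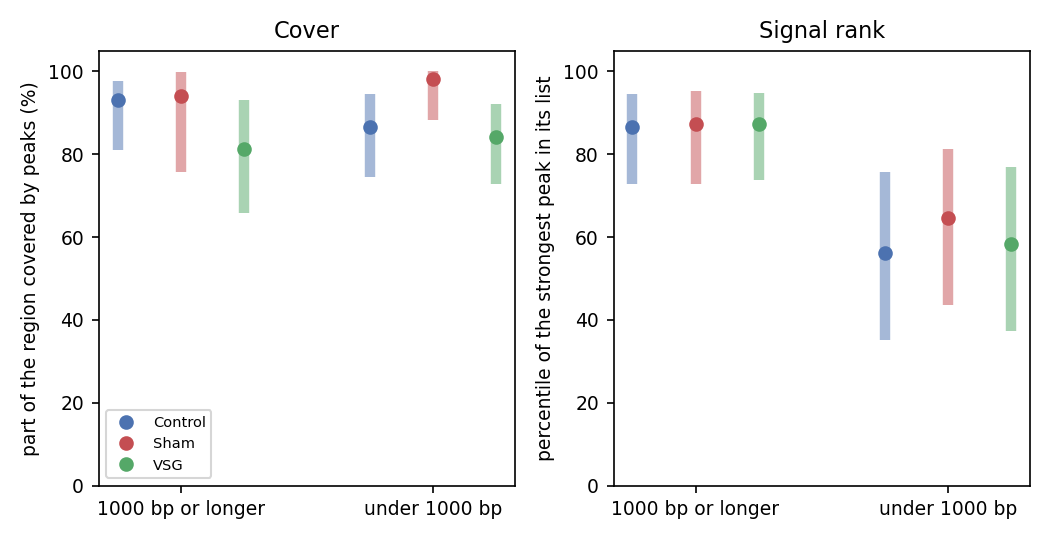
Cover of shared regions by the peaks of each group (left, percent of the region) and percentile of the strongest peak within its list (right), for 4281 regions of 1000 bp or longer and 28435 shorter ones. Points are medians and bars run from the 25th to the 75th percentile over regions. The median cover of the longer regions is 81.3% for VSG peaks against 93.2% and 94.0% for Control and Sham, while the 3 median percentiles lie between 86.5 and 87.4.

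Broad shared regions lay mostly at promoters. Of the 4281 regions, 2986 (69.8%, 95% Wilson interval 68.4% to 71.1%) came within 1000 bp of an annotated start of transcription, against 33.1% of narrow shared regions and 28.1% of all merged regions. A further 609 (14.2%) lay in introns, 549 (12.8%) between genes and 137 (3.20%) in exons. A long region reaches a start more easily, so the same 500 bp window at the strongest peak was compared. It lay within 1000 bp of a start in 67.1% of broad and 33.1% of narrow shared regions. A start fell inside the window itself in 53.4% and 24.1%.

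A CpG island sequence was present in 2058 broad shared regions (48.1%, interval 46.6% to 49.6%), against 19.6% of narrow shared and 15.6% of all merged regions. The median GC content of the window was 59.2% in broad and 51.8% in narrow shared regions, and the median CpG ratio was 0.667 and 0.309. Promoters with an island accounted for 1970 regions and promoters without for 1016. Only 88 island sequences lay away from a start, and 1207 regions had neither a start nor an island. Among promoter regions alone the island share was 66.0% for broad and 54.9% for narrow ones. Broad shared regions are therefore a mixture in which island promoters are the largest class.

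The shares rose with length and then levelled off. The window lay within 1000 bp of a start in 14.1% of shared regions under 250 bp, 23.2% at 250 to 500 bp, 44.4% at 500 to 750 bp and 58.8% at 750 to 1000 bp. From 1000 bp on it stayed between 63.8% and 68.2%. The island share rose from 5.18% to 41.8% over the same 4 classes, reached 49.4% and 50.0% in the next 2, up to 1500 bp, and was 35.6% (95% Wilson interval 30.7% to 40.8%) in the 343 regions of 2000 bp or longer. The window at the strongest peak thus met the island definition less often in the longest regions than in those of 1000 to 2000 bp. An island elsewhere in a region was not counted. There was no step at 1000 bp, which is the threshold of the rule and not a boundary in the data.

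**Figure D2:**
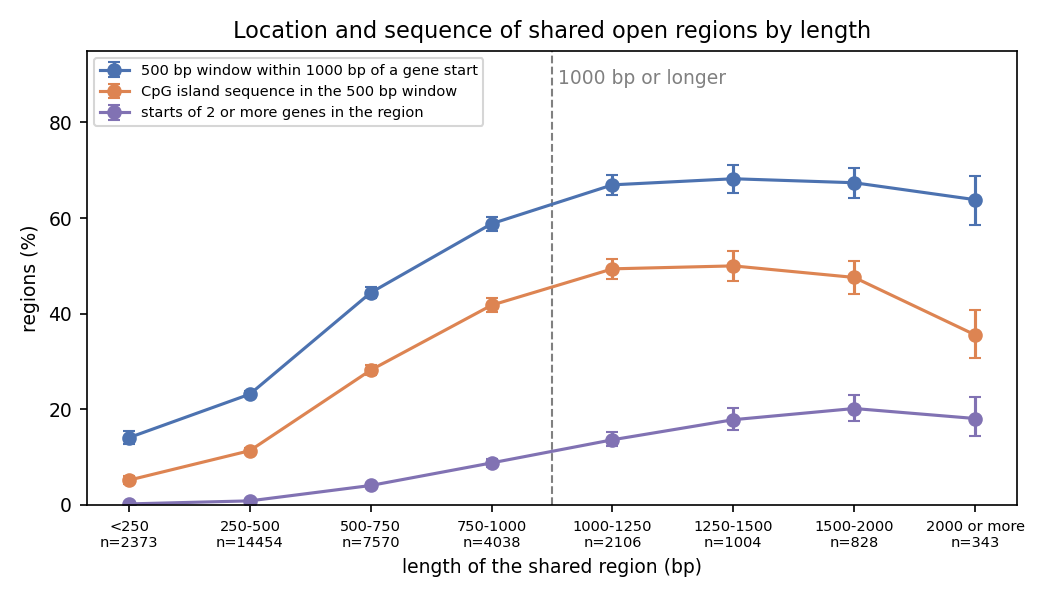
Share of shared regions (percent) by length class (bp), for windows within 1000 bp of a start, windows with a CpG island sequence and regions that hold the starts of 2 or more genes. Error bars are 95% Wilson intervals, which cover counting error only, and n is the number of regions; the dashed line marks the 1000 bp threshold. The promoter share climbs from 14.1% to 68.2% and the island share falls to 35.6% in the longest class.

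Many broad shared regions held the starts of more than 1 gene. The starts of 2 or more genes lay inside 695 regions (16.2%), against 2.78% of narrow shared regions, and in 663 of the 695 these starts were on both strands. The region of Trip10, 4414 bp long, holds the starts of Trip10, a regulator of the actin skeleton, and of Gpr108. Part of this difference follows from length, since the share rose from 0.211% of regions under 250 bp to 20.2% at 1500 to 2000 bp.

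Broad shared regions also had neighbours of their kind. Another broad shared region lay within 10000 bp of 1296 of them (30.3%), and 22 stretches joined 5 or more with such gaps. The Hyal2 stretch on chromosome 9 (chr9:107469127-107504711), a set of hyaluronidase genes and their neighbours, held 9 regions in 35585 bp. At Atp5d, Midn and Cirbp (chr10:79604582-79631478), 7 regions covered 15555 of 26897 bp. Pim3, a kinase gene, had 7 regions in 26800 bp. The stretch that begins at Slc25a22 and takes in Rplp2 and Pnpla2, the triglyceride lipase of lipid droplets, had 6 regions. Density differed between chromosomes: chromosome 11 held 41.2 regions per 10 Mb, chromosome 19 held 32.9 and the X chromosome 0.900. Shared regions of any length were unevenly spread too, with 2800 on chromosome 11 and 349 on the X chromosome, of which 17.9% and 4.30% were broad. The Y chromosome held 0 broad among its 10 shared regions.

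Judged by the window at the strongest peak, the 10 longest regions were not mainly islands. Only 1 of the 10 met the island definition, the stretch of 5902 bp at chr17:39979908-39985809, 203040 bp from the nearest start in the annotation. Slc25a22 came first with 6490 bp. The others with a named protein-coding gene were Slc25a47 (4687 bp, intronic, 2381 bp from that start), Arhgdia (4497 bp, 577 bp from that start), Gpt (4453 bp) and Trip10 (4414 bp). AI480526, Gm11399 and the Pisd-ps1 locus completed the list with a pair of predicted genes on chromosome 1. Among intronic regions the longest after that at Slc25a47 had as their nearest starts those of 2900026A02Rik (4414 bp) and Kdm6b (4205 bp), the latter a histone demethylase gene. Between genes, regions of 3331 bp near Gcgr, the glucagon receptor, and 3315 bp near Cirbp followed the one on chromosome 17.

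Some broad shared regions carry repeated or mitochondrial sequence. The region at chr1:24618294-24623100, 4807 bp, had the highest signal of all broad shared regions in every list. The F-seq value was 141 for the Control list, 135 for the Sham list and 144 for the VSG list. Of its bases, 4654 matched mitochondrial DNA at an identity of 99.9%. A second region, chr2:22443933-22445822, intronic with Myo3a as the nearest start, matched mitochondrial DNA over all of its 1890 bp at 97.8%. Mitochondrial DNA is not packed in nucleosomes. The study kept only reads that aligned to a single place, and how many reads in these regions came from mitochondrial DNA was not tested. With these 2 included, at least 1 further copy of the window at an identity of 95% or more was found for 15 broad shared regions (0.350%). For narrow ones the share was 0.742%. Only the assembled genome was searched. The predicted genes Gm10800 and Gm10722 and the stretch at chr17:39979908-39985809 completed the 5 highest Control signals. Their F-seq values in Control, Sham and VSG were 116, 94.4 and 141, then 25.2, 16.6 and 31.5, then 6.45, 14.9 and 17.3. Of these only Gm10722 had further copies (5), and how much repeated sequence the others hold was not tested.

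Motifs of CpG-rich promoters were more common in broad shared regions, and motifs of liver enhancers less common. In total 15 short motifs were searched on both strands of the 500 bp windows, and a match is a description of the letters and not of a bound factor. The GC box of the Sp1 family, GGGCGG, was found in 62.8% of broad, 33.3% of narrow shared and 28.0% of all merged regions. The ETS motif CCGGAAG was found in 17.6%, 9.52% and 7.53%, the NRF1 motif GCGCATGCG in 3.41%, 1.41% and 1.05%, and the YY1 motif AAGATGGCG in 3.48%, 1.48% and 1.14%. In the same order the CREB motif TGACGTCA was found in 3.13%, 1.82% and 1.37%, the E-box CACGTG in 15.2%, 11.6% and 10.8%, and the CTCF-like run AGGGGGC, which can overlap a GC box, in 19.3%, 14.1% and 13.1%.

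The motifs of the hepatocyte factors searched, of AP-1 and of the TATA box ran the other way over all locations. The C/EBP motif TTGCNNAA was found in 16.0% of broad, 20.6% of narrow shared and 21.8% of all merged regions, AP-1 (TGANTCA) in 10.1%, 13.7% and 15.02%, and FOXA (TGTTTAC) in 5.30%, 7.62% and 8.02%. HNF4 (CAAAGTCCA) was found in 1.17%, 2.15% and 2.05%, HNF1 (GTTAATNAT) in 1.004%, 1.57% and 1.58%, a direct repeat of nuclear receptors (AGGTCANAG) in 4.58%, 6.31% and 6.56%, and the TATA box TATAAAA in 2.24%, 5.81% and 6.44%. Within a class of location some shares were close: among island promoters alone the GC box was in 87.97% of broad and 86.3% of narrow regions. Away from starts AP-1 was in 17.4% of broad and 16.2% of narrow regions, FOXA in 9.58% and 8.93% and C/EBP in 22.4% and 23.6%. There HNF4 was in 2.70% and 2.73%, HNF1 in 1.93% and 1.91% and the direct repeat in 8.19% and 7.86%. At other promoters FOXA was in 4.63% and 6.57% and HNF4 in 0.984% and 1.70%. The GC box still differed outside island promoters, with 57.1% of broad and 44.4% of narrow regions at other promoters, and 29.0% and 16.4% away from starts. The TATA box was less common in broad regions at other promoters, with 2.36% against 5.61%, and away from starts, with 2.39% against 6.74%. The NRF1 motif was in 1.24% of broad and 0.305% of narrow regions away from starts. The CCAAT box of NF-Y, AGCCAAT, differed within island promoters as well, with 17.7% in broad and 11.9% in narrow ones, and was found in 13.4% of broad, 8.62% of narrow shared and 8.11% of all merged regions.

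The start of 3088 protein-coding genes, 13.8% of the 22372 in the annotation, lay in a broad shared region. The share was 29.2% among the 8793 genes with a mean FPKM of at least 1 over the 6 mice and 41.4% among the 630 genes with a mean of at least 100. Those 3 shares are the background for the lists of genes that follow. Genes with a start in such a region had a median FPKM of 6.02 to 7.36 per mouse, against 3.01 to 3.69 for narrow shared regions, 0.475 to 0.674 for other peaks and 0.00 without a peak. An FPKM of at least 1 was reached by 79.4% to 83.2% of them in each mouse, against 69.1% to 73.0% for narrow shared regions. The ranges of the 6 mice did not overlap between the classes, and the order was the same in every mouse of every group.

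**Figure D3:**
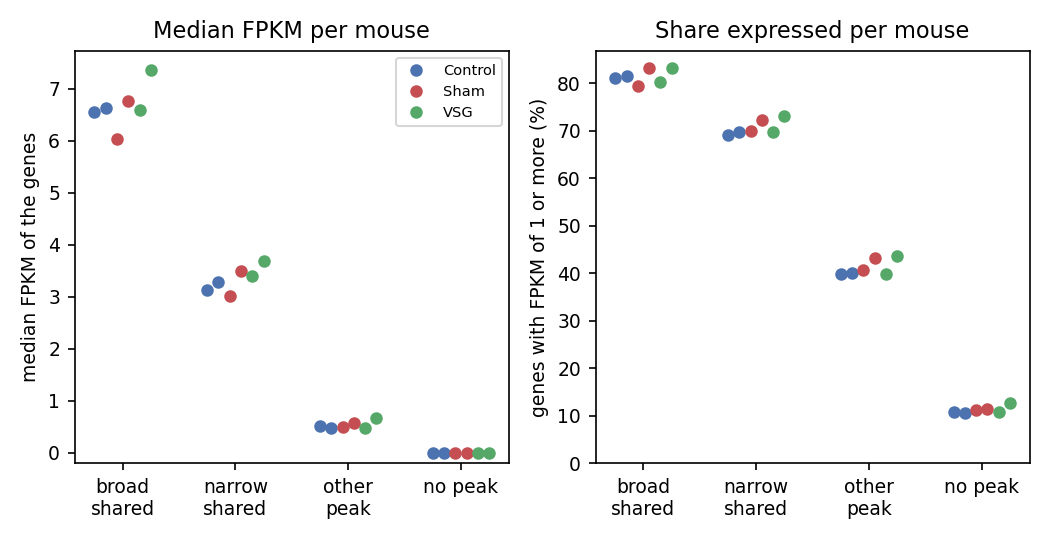
Median FPKM (left) and percent of protein-coding genes with an FPKM of at least 1 (right) by the region that holds a start of the gene, 1 point for each of the 6 mice. Broad shared regions are those of 1000 bp or longer, narrow ones are shorter, and other peaks are absent from at least 1 list. The 6 points of the broad class, 6.02 to 7.36 FPKM, lie above those of the narrow class, 3.01 to 3.69.

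Expression and island sequence did not run in parallel within the broad shared regions. The 813 genes in regions without an island promoter had a median FPKM of 7.58 to 9.47, and the 2191 genes in regions with one had 5.64 to 6.79. An FPKM of at least 100 was reached by 11.7% to 13.9% of the former and 5.61% to 7.21% of the latter. In regions of 1500 bp or longer the median was 8.13 to 9.32 for 859 genes. Away from starts, the 722 genes nearest to broad shared regions had a median FPKM of 3.56 to 5.15 and the 6322 nearest to narrow ones 1.31 to 1.91; nearness says nothing of which gene such a region acts on.

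Several lists of regulators and inducible genes had a share above 50% in broad shared regions. Of 32 immediate early genes, which respond within minutes to growth factors and stress, 19 had a start there (59.4%). The AP-1 gene Jun had a region of 4245 bp (chr4:94716510-94720754), Junb one of 3596 bp and Dusp1, a phosphatase of MAP kinases, one of 2801 bp. All 3 were island promoters covered to at least 82.4% by the peaks of every group, so they were open also where expression was modest: Jun stood at 13.0 and 18.2 FPKM in Control, 7.06 and 13.9 in Sham and 74.4 and 18.2 in VSG. Of 23 genes of the stress response of the endoplasmic reticulum, 14 had a start in a broad shared region, among them Atf4 (2344 bp), the chaperone Hsp90b1 (2138 bp) and Herpud1 (2033 bp). Of 21 circadian genes the count was 11, led by the clock repressor Per1 (2765 bp) and the output factors Tef (2174 bp) and Dbp (2071 bp). Of 29 liver transcription factors it was 15, with Ppara (2689 bp), Cebpa (1962 bp) and Gata6 (1862 bp) the longest.

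Metabolic lists had shares from 41.7% to 55.6%, apart from those of bile acid and P450 genes given further on. Of 27 genes of fatty acid oxidation and ketone synthesis, 15 had a start in a broad shared region, with Acaa1b (2411 bp), a peroxisomal thiolase, and Acsl1 (1745 bp), which activates fatty acids, the longest after Ppara. Of 25 genes of glucose and insulin signalling the count was 13, led by Trib1 (2880 bp), Ppp1r3b (2108 bp) and Akt2 (1949 bp). Of 27 genes of fatty acid and triglyceride synthesis it was 12: Fasn, fatty acid synthase, had 2637 bp, Agpat2 2344 bp and the glucose-responsive factor Mlxipl 2067 bp. Of 24 genes of cholesterol synthesis and uptake it was 10, with Insig1 (1994 bp) and Tm7sf2 (1550 bp) the longest. Fasn was covered to 77.0% by Control, 49.0% by Sham and 96.8% by VSG peaks, so its open length was not the same in the 3 lists.

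Housekeeping lists varied. Spliceosome and RNA-binding proteins had 20 of 32 genes in broad shared regions, the highest share of all 26 lists at 62.5%, with the long noncoding RNA Neat1 (2922 bp), Hnrnpa1 (1948 bp) and Hnrnpf (1642 bp) the longest. Subunits of oxidative phosphorylation had 17 of 36, among them Sdhb (1754 bp) of complex II and Atp5j (1512 bp) of ATP synthase. Ribosomal proteins had 24 of 57, led by Rpl18 (2531 bp) and Rpl10a (2494 bp). Proteasome subunits had 9 of 31, although none of the 31 lacked a shared region altogether, since the other 22 had a narrow one. Chromatin and DNA methylation regulators had 9 of 36, with Brd2 (2982 bp) the longest, and replication-dependent histones had 3 of 26.

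Among highly expressed liver genes broad regions were not the rule. Of 38 hepatocyte secreted proteins, 11 had a start in a broad shared region (28.9%) and 22 in a narrow one. Apoa1, the main protein of HDL, had 3171 bp and 6334 to 11117 FPKM over the 6 mice, and Apoc1 had 2647 bp and 4043 to 10943 FPKM; neither was an island promoter. Of 26 acute phase genes the count was 9, led by Socs3 (2914 bp) and the metallothionein gene Mt1 (1887 bp). Of 35 cytochrome P450 genes of drug and fatty acid metabolism, 0 had a start in a broad shared region, 14 had a narrow one and 16 had no peak at the start, although the summed level of the list was 4194 to 14783 FPKM per mouse. Of 25 bile acid genes the count was 5, with Cyp27a1 (1600 bp), Slc10a1 (1279 bp) and Abcg5 (1139 bp) the longest.

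Genes of other cell types and tissues were mostly outside, but so were protein-coding genes as a whole. Of all protein-coding genes, 13.8% had a start in a broad shared region. The neutrophil share, 16.7%, lay above that value, and none of the lists below was tested against it. The count was 0 of 16 for Kupffer cells, 1 of 17 for sinusoidal endothelium (Gata4), 1 of 17 for stellate cells and matrix (Vim), 1 of 10 for cholangiocytes (Sox9) and 2 of 12 for neutrophils (Lcn2 and Elane). Lcn2 is also made by stressed hepatocytes. Developmental regulators had 0 of 39 and genes of other tissues 1 of 28, again Elane. Of the 11 genes the study names, 1 had a start in a broad shared region: Rxra, at 1217 bp and without an island. Rxra stood at 65.0 and 74.7 FPKM in Control, 66.3 in 1 Sham mouse, 71.0 and 86.7 in VSG, and was listed at 0 in the other Sham mouse.

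**Figure D4:**
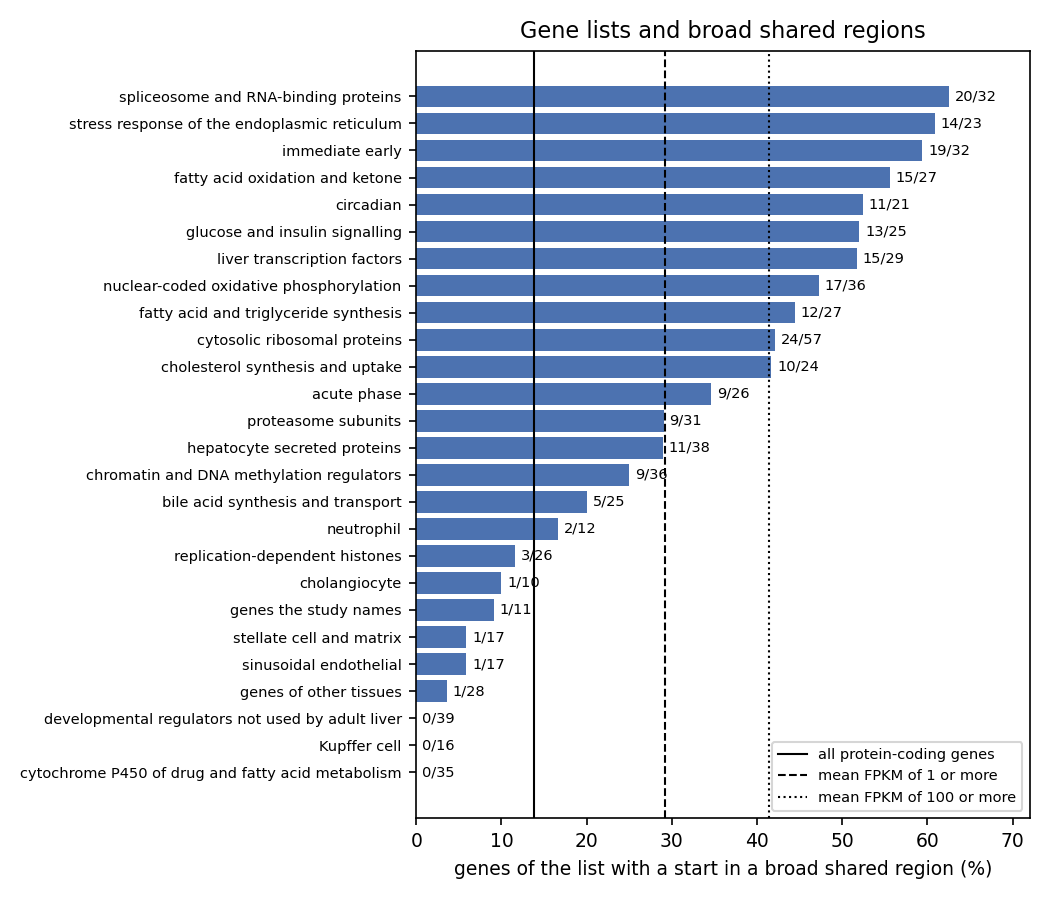
Percent of the genes of each of 26 lists with a start in a broad shared region; the fraction beside each bar gives the genes with such a start and the genes found in the annotation. Vertical lines mark all protein-coding genes (13.8%), those with a mean FPKM of at least 1 (29.2%) and of at least 100 (41.4%). Spliceosome, endoplasmic reticulum stress and immediate early genes lie at 59.4% to 62.5%, and cytochrome P450, Kupffer cell and developmental genes at 0.

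The authors' lists of variable sites hold positions only and share mice and peaks with the lists that chose the regions, so the counts below are a description. Of the 4281 broad shared regions, 47 (1.10%) held a site more accessible in VSG than in Sham, against 0.699% of all merged regions (414 of 59249) and 0.499% of narrow shared ones. Longer regions have more room for a site: the share rose from 0.169% of shared regions under 250 bp to 1.09% at 750 to 1000 bp, about the value of the broad ones. None held a site more accessible in Sham than in VSG: 0 of 4281, which allows a share of up to 0.0701%, against 0.167% of all merged regions (99 of 59249). Such sites were rare in any shared region, with 7 in narrow ones. Sites that fell in Sham and returned in VSG lay in 34 broad shared regions (0.794%), against 0.295% of all merged regions, and sites that rose in Sham and returned lay in 0, against 0.103%.

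The 47 regions with a site more accessible in VSG were mostly promoters, as were broad shared regions as a whole (69.8%). Of the 47, 27 were island promoters and 13 other promoters, 3 were islands away from a start and 4 had neither. Such a site lay in 1.37% of island promoters and 1.28% of other promoters. The share was 3.41% for islands away from a start and 0.331% for regions with neither. Sham peaks covered a median of 62.8% of the 47 regions, against 94.2% of the regions without such a site. Control peaks covered 95.5% of the 47 and VSG peaks 96.4%. The strongest Sham peak stood at a median percentile of 67.7, against 87.6 without a site. These values restate in part what made the authors call the sites. In the Epha2 region, 2261 bp long, Control peaks covered 98.0%, Sham peaks 14.8% and VSG peaks 98.7%. The short Sham peak there still ranked high, at percentile 91.2, beside 93.7 in Control and 92.0 in VSG. In the region of Smarca2, an ATPase of chromatin remodelling, the cover was 93.7%, 71.0% and 95.7%.

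The other named regions of this kind were at Brp44l (1970 bp) and at 2 stretches of a single locus on chromosome 11. The 9 broad shared regions around Pisd-ps1 and Gm11399 (chr11:3023227-3062358) cover 20985 of 39132 bp and include the regions of 4974 and 4675 bp. Promoters of known regulators were among the shorter ones, chosen here after their values were seen: Nr4a1, an orphan nuclear receptor, had 1329 bp, Bhlhe41, a clock repressor, 1673 bp, and Hdac1, a histone deacetylase, 1339 bp. At least 1 further copy of the window was found for 4 of the 47 regions, among them that near Tmem125 (26) and that of Gm10722 (5). The high-signal region of Gm10800 was also among the 47.

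No RNA of Epha2, Smarca2, Hdac1 or Nr4a1 was called between VSG and Sham by limma. Epha2 stood at 8.69 and 6.49 FPKM in Control, 3.001 and 11.4 in Sham and 11.5 and 4.603 in VSG, so the groups overlapped. Nr4a1 stood at 1.69 and 2.72 FPKM in Control, 0.448 and 0.822 in Sham, and was listed at 0 in both VSG mice (VSG against Sham, adjusted p = 0.937 by limma). Of the 2 tested transcripts of Smarca2, NM_026003 stood at 20.8 and 15.1 FPKM in Control and 29.9 and 8.46 in Sham and was listed at 0 in VSG (adjusted p = 0.338 against Sham by limma). Summed over transcripts, Smarca2 stood at 29.9 and 14.1 FPKM in Sham and 3.14 and 20.7 in VSG, where the groups overlapped. Bhlhe41 stayed at 0.292 to 0.873 FPKM over all 6 mice.

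The RNA-seq also allowed a test that the choice of the regions did not use, namely whether transcripts of genes that start in a broad shared region differed between the groups. A transcript was tested when 2 or more mice reached an FPKM of 1, which left 3300 of the 5191 such transcripts among 11511 in all. The fit was made with limma on log2(FPKM + 1), with Benjamini-Hochberg adjustment at an FDR of 10%. Few were called. Sham against Control gave 6 higher (0.182%) and 10 lower (0.303%) in Sham, against 0.113% (13 transcripts) and 0.235% (27) of all transcripts tested. VSG against Sham gave 5 higher (0.152%) and 1 lower (0.0303%) in VSG, against 0.0521% (6) and 0.0261% (3) of all. VSG against Control gave 2 higher (0.0606%) and 3 lower (0.0909%) in VSG, against 0.0695% (8) and 0.148% (17) of all. The comparisons share mice, so their calls are not independent of each other.

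At an unadjusted p under 0.05, 161 transcripts of broad shared regions (4.88%) were higher and 142 (4.30%) lower in Sham than in Control, against 5.73% and 4.49% of all. Between VSG and Sham 91 (2.76%) were higher and 57 (1.73%) lower in VSG, against 3.40% and 1.56%. Between VSG and Control 163 (4.94%) were higher and 98 (2.97%) lower in VSG, against 5.70% and 2.62%. The median log2 change of the 3300 transcripts was -0.01 for Sham against Control, 0.09 for VSG against Sham and 0.08 for VSG against Control, and that of all 11511 was 0.02, 0.09 and 0.12. After quantile normalization the medians of the 3300 were -0.02, -0.02 and -0.05, so the sign of the last 2 comparisons rests on the scaling. The shares at an unadjusted p under 0.05 and the medians of these transcripts were near those of all transcripts.

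The transcript of Ucp2, an uncoupling protein of the inner mitochondrial membrane whose promoter region is 1110 bp long, was the only one called for Sham against Control that was above 0 in every mouse. It stood at 10.04 and 8.42 FPKM in Control, 42.9 and 50.9 in Sham and 36.9 and 32.1 in VSG. All 4 mice on the high-fat diet were above both Control mice, and the log2 change of Sham against Control was 2.23 (SE 0.22, adjusted p = 0.0651 by limma). For VSG against Control it was 1.79 (adjusted p = 0.125 by limma), short of the threshold. The call of Sham against Control kept its direction in all 14 alternatives but passed the threshold in only 5. It was lost with the strict filter of an FPKM of 1 in all 6 mice, with only these groups in the fit, with quantile normalization, with the replicate block and without any mouse other than Sham replicate 2.

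Naca, a subunit of the complex that binds nascent proteins at the ribosome, had a region of 1333 bp. It stood at 193 and 187 FPKM in Control, 199 and 151 in Sham and 34.2 and 40.3 in VSG. Both VSG mice were below the other 4, with a log2 change of -2.32 against Control (SE 0.24, adjusted p = 0.0950 by limma) and -2.19 against Sham (adjusted p = 0.163 by limma). The call against Control was lost in 6 of 14 alternatives, namely the strict filter, the replicate block and the omission of any Control or VSG mouse. Naca has processed copies in the mouse genome, so its level is uncertain where reads were split among them.

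In nearly all other calls a transcript was listed at 0 in both mice of a group. This held for 15 of the 16 calls of Sham against Control, 6 of 6 of VSG against Sham and 4 of 5 of VSG against Control. An exact 0 from Cufflinks may be a failed estimate, and no fold is given for these. Mrpl18, a mitochondrial ribosomal protein, stood at 40.2 and 40.9 FPKM in Control and was listed at 0 in all 4 other mice. Spryd4 was listed at 0 in Control and stood at 18.9 and 22.2 in Sham and 21.5 and 23.7 in VSG. Krcc1 stood at 9.98 and 15.5 in Control, was listed at 0 in Sham and stood at 41.0 and 34.4 in VSG. These genes have a single transcript in the table, and so does Setd1a, a histone methyltransferase, at 4.65 and 6.50 FPKM in Control and listed at 0 elsewhere.

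**Figure D5:**
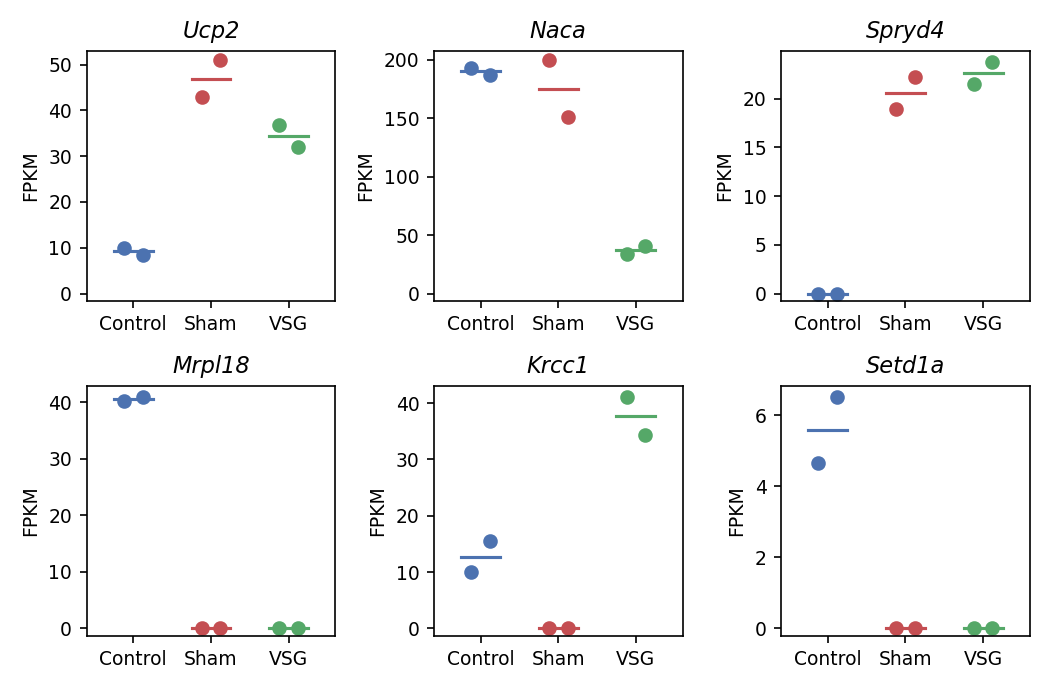
FPKM of 6 called transcripts whose gene starts in a broad shared region, in each mouse (points) with the group mean (line). Ucp2 and Naca are above 0 in every mouse; Spryd4, Mrpl18, Krcc1 and Setd1a are listed at 0 in both mice of at least 1 group.

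For genes with several transcripts the sum over the gene often differed from the called transcript. The called transcript of Ctsa, a lysosomal carboxypeptidase, stood at 5.73 and 6.15 FPKM in Control, was listed at 0 in Sham and stood at 9.75 and 9.86 in VSG. Summed over its 2 transcripts the gene was highest in Sham, at 79.3 and 97.0 FPKM, against 33.4 and 32.0 in Control and 70.3 and 57.5 in VSG. A called transcript of Asgr1, a hepatocyte receptor for glycoproteins, was listed at 0 in Control, where the gene sum was 401 and 357. For Cd82, Mea1, Ddx17, Rbm39, Slc19a2, Txnl4a and Pold4, too, the gene sum was above 0 in at least 1 mouse of the group where the called transcript was listed at 0. Among the 16 calls of Sham against Control, the sum of the gene was also at 0 in both mice of a group in 4.

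Few list genes were called, as was the case for all transcripts. Of 215 list genes with a start in a broad shared region, 204 were tested by 243 transcripts. A transcript of the RNA helicase gene Ddx17 was called against Control in Sham and in VSG, where it was listed at 0 in all 4 mice while the gene sum was 11.6 to 47.3 FPKM. No other list transcript was called by limma in any of the 3 comparisons. This gave 1 of 243 for Sham against Control, 0 for VSG against Sham and 1 for VSG against Control, beside 40, 9 and 25 of all 11511 transcripts. At an unadjusted p under 0.05 the counts of list transcripts were 21, 13 and 18 of 243, higher and lower together. Of all 11511 transcripts, 5.73% were higher and 4.49% lower at that level for Sham against Control. The shares were 3.40% and 1.56% for VSG against Sham and 5.70% and 2.62% for VSG against Control. Other list genes missed the threshold. Lcn2 varied between mice of a group and stood at 154 and 109 FPKM in Control, 1932 and 5279 in Sham and 2069 and 214 in VSG (Sham against Control, adjusted p = 0.345 by limma). The mice of a group were closer for Neat1 in Control and Sham and for Mt1, whose groups did not overlap, yet neither passed. Neat1 stood at 18.8 and 28.0 FPKM in Control, 186 and 232 in Sham and 204 and 81.5 in VSG, with adjusted p = 0.158 for Sham against Control by limma. Mt1 stood at 4506 and 5629 FPKM in Control, 2826 and 3221 in Sham and 870 and 555 in VSG, with adjusted p = 0.139 for VSG against Control by limma.

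Markers of other cell types varied between the mice, and their part in these RNA results was not tested. The summed level of the 16 Kupffer cell genes was 83.2 to 93.1 FPKM in Control, 186 to 220 in Sham and 129 to 400 in VSG. That of the 17 sinusoidal endothelial genes was 45.1 to 83.2, 14.0 to 21.1 and 51.2 to 55.4. That of the 17 stellate cell and matrix genes was 99.9 to 114, 36.7 to 61.8 and 102 to 148. That of the 10 cholangiocyte genes was 34.6 to 37.1, 71.0 to 192 and 38.4 to 149. The median of the 10 cholangiocyte genes was 0.473 and 0.549 FPKM in Control, 0.177 and 0.621 in Sham and 0.418 and 0.340 in VSG. Their sum was thus carried by part of the list. The summed level of the 12 neutrophil genes was 116 to 170 FPKM in Control, 1977 to 5328 in Sham and 232 to 2094 in VSG. Lcn2, given above, made up most of it. None of the genes in these lists was listed at 0 in all mice. With 2 mice in each group an exact permutation test cannot fall below p = 0.333, and the number of calls by limma turned on single libraries. In all 3 comparisons the calls of broad shared regions rose when either Sham mouse was left out. They fell when any Control or VSG mouse was left out. The calls over all transcripts tested moved in the same directions, so this swing was not particular to broad shared regions.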

How the data were processed

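FAIRE-seq peaks were called by the authors with F-seq on reads aligned to mm9 and kept where IDR found them in both mice; the deposited peak signal is the F-seq value and was only ranked within a list. The authors ran Cufflinks after TopHat2 alignment, and the deposited FPKM values are given per RefSeq transcript and mouse. The deposited tables of the authors' own comparisons (log2 fold changes and p-values) were not used. GEO's labels name poly(A) selection and the methods name ribosomal depletion.

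Peaks were merged where they overlapped. Starts came from GENCODE vM1, pseudogenes left out; 31608 of 34933 transcripts found a gene through RefSeq names, and a transcript counted when any start of its gene lay in a region, as transcript positions were not used. Sequences were read from NCBIM37 with pysam 0.24.0, and copies were found with BLAST 2.17.0 at 95% identity over 80% of the window. limma 3.58.1 in R 4.3.3 was fitted with a variance trend over all 3 groups after testing on simulated data. The regions, the 26 gene lists and the tests were chosen with earlier results of these data known. Named regions are the longest of all, per location, per gene list and per kind of site, and named transcripts the 5 with the smallest p per comparison and direction. Alternatives covered peak merging, length, cover, signal, distance, island definition, pseudocount, filter, normalization, gene sums and each mouse left out. Nothing says whether samples of a group were handled apart, so p-values measure only the spread between these mice.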

Additional observations from a re-analysis of the deposited data

How the results depend on the processing

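The number of regions was 7321 from 800 bp, 1171 from 1500 bp and 1157 with a peak of 1000 bp in each list. In the order from 800 bp, from 1500 bp, a long peak in each list, 50% cover in each list and the stronger 50% of peaks, the share near a start was 66.0%, 71.7%, 79.0%, 72.9% and 73.0%, and the island share 46.1%, 44.1%, 55.7%, 51.5% and 51.4%. A distance of 500 or 2000 bp gave 67.5% or 73.1% near a start, and the whole region or a looser definition gave 41.6% or 55.4% islands. Sites more accessible in VSG lay in 81, 12 and 7 regions under the 3 changes of length and in 31 with the stronger peaks; from 800 bp, 1 region held a site more accessible in Sham. Merging touching peaks, equal list sizes and a central window moved none of these values by more than their interval or 1.5 times.

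Calls of Sham against Control (16) became 25 without a filter, 0 with an FPKM of 1 in all 6 mice, 8 with gene sums, 7 with only these groups in the fit and 6 from 1500 bp. Calls of VSG against Sham (6) became 0 with that filter, 1 with gene sums and 0 with only these groups. Calls of VSG against Control (5) became 16 and 8 with pseudocounts of 0.1 and 0.5, 19 without a filter, 0 with the strict filter, 14 with only these groups and 2 from 1500 bp. Without 1 mouse they ranged from 0 to 81, 0 to 42 and 0 to 12. Where a group kept 1 mouse, it was taken to vary like the others. With the replicate block there were 5, 0 and 2 calls; the labels tie no batch or litter to a replicate number, so the mice share only a number, and deviations of same-numbered mice correlated at 0.12, 0.09 and 0.11 (Control and Sham, Control and VSG, Sham and VSG). With the strict filter limma called 0 of all 6725 transcripts tested in each comparison. Of the 2045 of broad shared regions among them, 217, 108 and 193 had an unadjusted p under 0.05. The same count over all 6725 was not taken, so these counts have no background. Some pass that level even where nothing differs, so these counts alone show no missed change. The strict filter removes every transcript listed at 0 in any mouse; why Ucp2 and Naca, which pass it, lost their calls there, and the other causes, were not tested. Of 371 refits of 30 named transcripts and comparisons, 238 kept direction and side of the threshold, 116 lost the call, 15 gained it and 2 reversed: gene sums gave log2 changes of -0.46 for Ctsa and 0.13 for Ccdc58 in VSG against Sham.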
